A study of Mus musculus with 8 samples.

Results

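Colonic macrophages that had arisen from monocytes were set against the monocytes of the spleen, to describe which transcripts were higher and which lower once monocytes had become macrophages of the gut wall. The comparison rested on 2 of the 8 arrays of the series. One held CX3CR1hi macrophages sorted from the colon and labelled as reconstituted from monocytes, and the other held splenic Ly6Chi monocytes, both at steady state. A gene became a member if, in whichever of these samples it was brighter, it reached the median level of all probe sets, 5.80 in the macrophages and 5.78 in the monocytes. This held for 10555 of 19938 named genes.

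All mice were C57BL/6 and Cx3cr1gfp/+, so that a green fluorescent protein stood in for 1 copy of the gene of the fractalkine receptor, and every group, the monocytes included, carried this allele. The reconstituted macrophages, resident colonic CX3CR1hi macrophages and the splenic monocytes were labelled female and at steady state. The other groups were labelled male. They were colonic CX3CR1hi F4/80hi cells at steady state and, at day 4 of colitis from dextran sodium sulphate, colonic CX3CR1hi F4/80hi cells, colonic cells of intermediate CX3CR1 that were either CX3CR1int Ly6Clo or CX3CR1int Ly6Chi, and Ly6Chi monocytes from the spleen. The sources used here do not say how the hosts of the reconstituted cells were emptied of their own macrophages, which cells they kept, or how many mice were pooled. With 1 array per group, no difference below has a replicate check or a test, and "higher" and "lower" describe these arrays alone.

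Monocytes leave the bone marrow, circulate, and enter the gut wall throughout life, where they turn into macrophages that live beneath the epithelium. Such macrophages engulf dying cells and microbes, present antigen, and release interleukin 10 and prostaglandins that restrain inflammation and sustain the epithelium. Classical Ly6Chi monocytes carry the chemokine receptor CCR2, migrate in response to injury, and hold a store of transcripts for defence, adhesion and clotting.

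The label for sex was checked with Xist and Y-linked genes. Xist was 12.28 in reconstituted macrophages and 10.04 in splenic monocytes. Eif2s3y, on the Y chromosome, was 4.34 in reconstituted macrophages and 10.28 in splenic monocytes, although both were labelled female. Uty (4.54 and 8.46) and Kdm5d (4.94 and 8.38), also Y-linked, stood the same way, so the library labelled as female splenic monocytes held both Xist and Y-linked transcripts. With the colitis splenic array in its place, 1740 of 10522 genes (16.5%) were 2-fold higher and 1095 (10.4%) lower in reconstituted macrophages.

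Of the 10555 members, 1791 (17%) were at least 2-fold higher in reconstituted macrophages and 1166 (11%) were at least 2-fold lower. At 4-fold, 899 (8.52%) were higher and 259 (2.45%) lower, so the largest differences lay mostly on the side of the macrophages. The median difference over all members was -0.12, where each difference is the log2 value of the macrophage array minus that of the monocyte array and 1 is 2-fold. Among the 1791 higher genes, 973 were below the array median in the monocytes, while 214 of the 1166 lower genes were below the array median in the macrophages. Such genes passed the filter only through the brighter array, so list counts and medians below follow in part from the filter. The background for each list count is the 17% higher and 11% lower over all members. The nearest available yardstick was the pair of other steady-state CX3CR1hi arrays, resident and F4/80hi, in which 378 of 10384 genes (3.64%) were 2-fold apart and their differences had an SD of 0.396 across genes. That pair differed in labelled sex and gate, so it is no replicate.

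**Figure D1:**
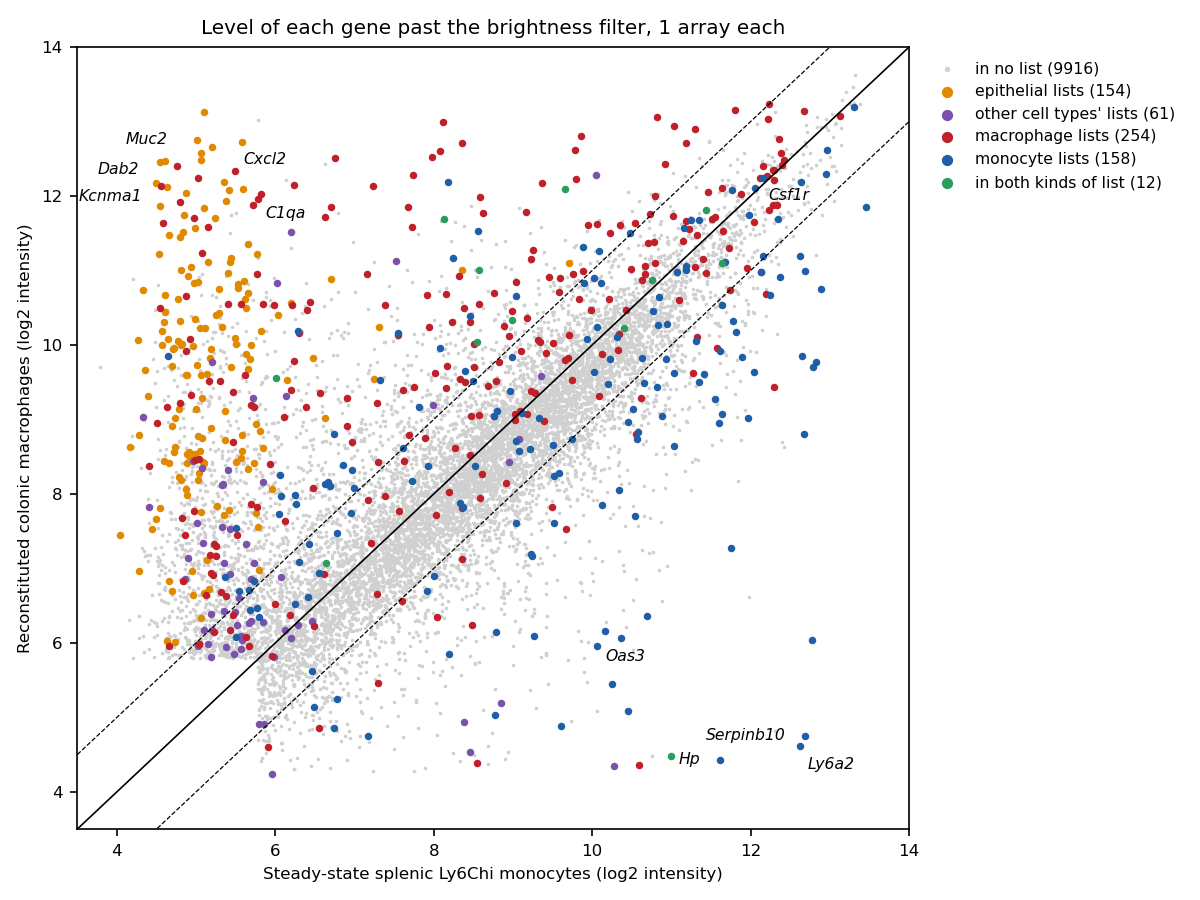
Log2 intensity of each of the 10555 genes past the brightness filter in reconstituted macrophages (vertical axis) and splenic monocytes (horizontal axis), 1 array each. The solid line marks equal levels and the dashed lines 2-fold. Epithelial genes (orange) form a column at the upper left, and the lowest points on the right are monocyte genes such as Ly6a2 and Serpinb10.

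Epithelial genes were prominent among the 100 highest differences. Most of the 1791 higher genes were in no epithelial list, but these lists held only 62 absorptive and 31 goblet and secretory measured genes. They were too short to cover most of the 1791, even with the 71 genes described below. The size of the epithelial part was not tested. All 58 absorptive epithelial genes that passed the filter were at least 2-fold higher in the macrophage array, as were all 25 goblet and secretory genes, against 17% of all members. Most of these genes passed only because the macrophage array was bright, so the counts follow in part from the filter. Of 62 measured absorptive genes, 58 reached the array median in reconstituted macrophages and 5 did in splenic monocytes. Muc2, the main secreted mucin of goblet cells, had a level of 12.58 in reconstituted macrophages and 5.06 in splenic monocytes. Lypd8, a surface protein of colonocytes, had 13.13 and 5.10, the largest difference of any member (8.03). Epcam, the epithelial adhesion molecule, had 10.76 and 5.52. All of these were below the array median in the monocytes and bright in the macrophage array.

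The epithelial signal was present in every colonic array. Summed over the 62 absorptive genes, linear intensity was 97237 in reconstituted macrophages and 71706 to 122513 over all CX3CR1hi arrays, against 3350 in the steady-state and 4231 in the colitis splenic array. The colitis Ly6Clo and Ly6Chi arrays stood between, at 36935 and 36967. A further 71 epithelial genes that no list held were noted after the values were seen, among them Adh1 (12.47 in the macrophages and 4.60 in the monocytes), Dmbt1 (12.65 and 5.20) and Car2 (12.10 and 5.59). With the lists of other cell types and these genes set aside, 1606 genes were higher and 1161 lower. Of the 100 highest differences, 58 belonged to one of these sets. Of the 100 lowest 4 did, namely Flt3 and the Y-linked Eif2s3y, Uty and Kdm5d. The added genes were all higher and were picked with their values seen, so they could enter only the first count. Genes that a macrophage or monocyte list also held, such as Mmp8 and Cd209a, were neither counted nor set aside. The genes left over were not checked further for transcripts of other cells. In pooled RNA, the number of cells of a type and the RNA per cell cannot be told apart.

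Plasma cell, stromal and endothelial transcripts were also higher in the macrophage array. Jchain, which joins the units of secreted IgA and IgM, had 10.83 in reconstituted macrophages and 6.02 in splenic monocytes. Igha, the IgA heavy chain, had 9.31 and 6.13. Both were higher still in the colitis Ly6Chi array, at 12.46 and 12.21. The B cell gene Ms4a1, which encodes CD20, had 4.92 in the macrophages and 5.86 in the monocytes. Of 10 plasma and B cell genes past the filter, 5 were 2-fold higher and 0 lower, with a median difference of 0.83. Summed over all 17 measured, intensity was 4577 to 9923 in the CX3CR1hi arrays, lowest in the reconstituted one, against 1707 to 2348 in the spleen. Mzb1, a plasma cell chaperone, stayed below the array median in both, at 4.59 and 4.20.

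Among 15 stromal genes past the filter, 8 were higher and 0 lower (median 1.20). Dcn, a proteoglycan of connective tissue, had 9.77 in reconstituted macrophages and 5.19 in splenic monocytes, and Bgn, its relative, had 9.04 and 4.33. The collagen genes did not share this: Col1a1 had 6.24 and 6.29, and Col3a1 had 6.17 and 6.12. Summed over all 28 measured stromal genes, intensity was 3850 to 9190 in the CX3CR1hi arrays, again lowest in the reconstituted one, against 1110 to 1134 in the spleen. Both collagens were brighter in the resident array, at 6.95 and 6.99, and in the colitis F4/80hi array, at 7.65 and 7.70. Of 8 endothelial genes, 6 were higher, among them Cdh5, the endothelial cadherin, with 7.15 and 4.90. Smooth muscle showed 2 of 6 higher, led by Myl9 with 6.93 and 5.43. The sums were 1397 to 1844 against 600.2 to 604.3 for 15 endothelial genes and 1178 to 2405 against 637 to 689 for 12 smooth muscle genes.

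Acinar enzymes of the pancreas differed between the colonic arrays. Cpa1, a carboxypeptidase, had 5.95 in reconstituted macrophages and 5.02 in splenic monocytes. In the other colonic arrays it was at 9.59 in resident macrophages, 5.25 in steady-state and 9.23 in colitis F4/80hi cells, 4.85 in Ly6Clo and 9.59 in Ly6Chi cells. The reconstituted, steady-state F4/80hi and Ly6Clo arrays were thus low for it. The brightest members of the acinar list, Zg16 (11.87 and 4.55) and Sycn (12.18 and 5.35), were instead bright in every colonic array, and Zg16 is also a goblet cell product. Summed over 18 acinar genes, intensity was 6400 to 16173 in the CX3CR1hi arrays and 668 to 702 in the spleen. This sum includes Zg16 and Sycn, which the epithelial lists also hold, so it does not measure acinar transcripts alone. None of 13 markers of T, NK and innate lymphoid cells and none of 6 of eosinophils reached the array median in either array. The part of these other cells in the differences below was not tested.

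**Figure D2:**
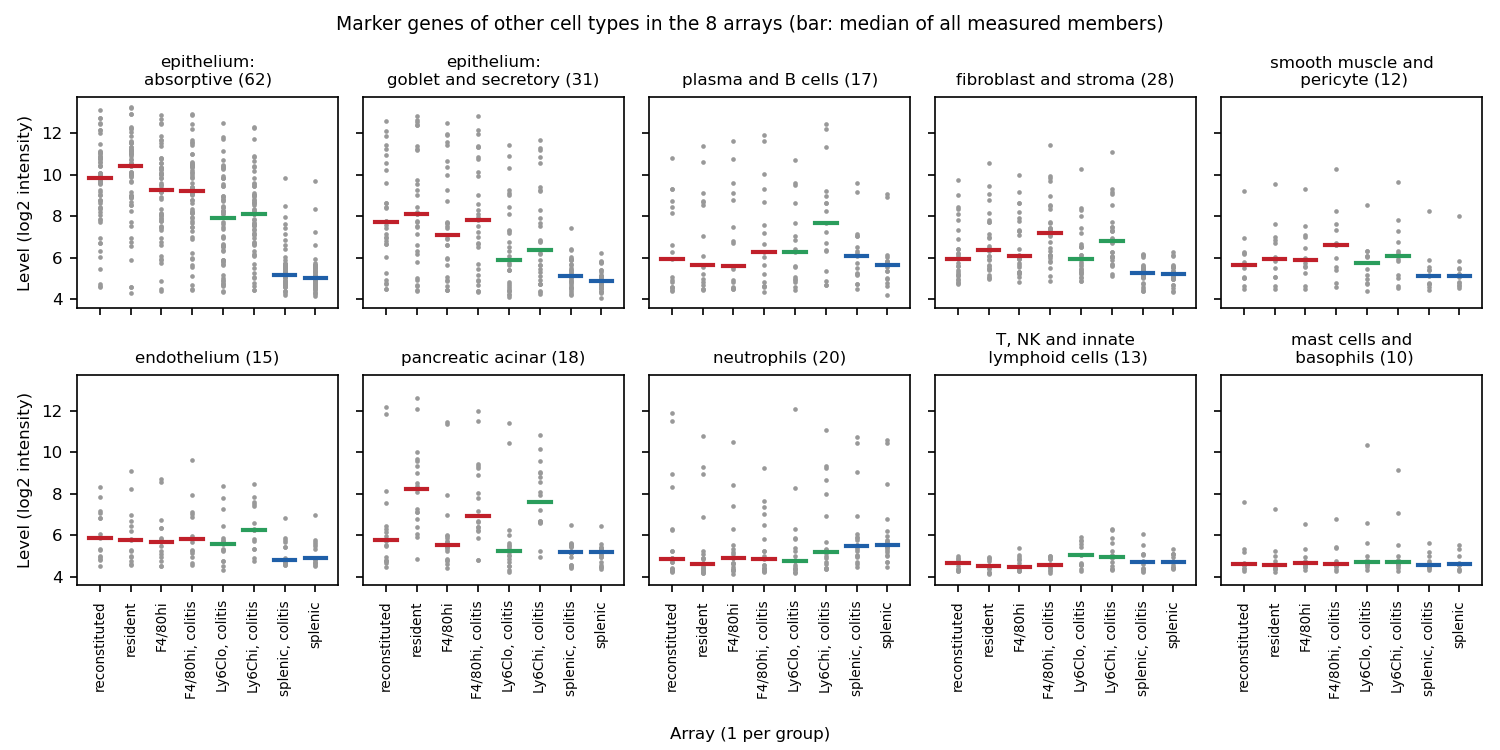
Log2 intensity of the measured marker genes of other cell types (grey points) in the 8 arrays, with a bar at the median: red for the 4 CX3CR1hi arrays, green for the 2 colitis CX3CR1int arrays, blue for the 2 splenic arrays. Epithelial medians are high in all CX3CR1hi arrays and low in the spleen, plasma cell medians peak in the colitis Ly6Chi array, and lymphocyte and mast cell medians stay near the floor.

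Macrophage identity genes were higher or alike in the macrophage array. Of 22 past the filter, 11 were at least 2-fold higher (background 17%) and 0 were lower (background 11%), with a median difference of 1.46. The median was 0.71 with both arrays at or above their medians. Cd81, a tetraspanin, had a level of 12.52 in reconstituted macrophages and 7.97 in splenic monocytes. Cd63, the tetraspanin of late endosomes, had 11.72 and 6.63. Ms4a7, a membrane protein of mature macrophages, had 11.58 and 7.72. All of these were as bright in resident macrophages (12.61, 11.94 and 12.16). None of the CX3CR1hi arrays overlapped the splenic ones, but that held for 98.0% of all higher genes and is not particular to these.

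Several textbook macrophage markers did not separate the cells. Csf1r, the receptor for the growth factor that macrophages need, had 12.25 in reconstituted macrophages and 12.12 in splenic monocytes. Cd68, a lysosomal glycoprotein, had 12.21 and 12.30. Adgre1, which encodes F4/80, had 12.05 and 11.46. Fcgr1, the high-affinity IgG receptor, had 10.23 and 10.40. These 4 genes were bright in all 8 arrays. Cx3cr1, whose reporter served in the sort, had 10.88 and 10.76.

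Genes for the uptake of dying cells held some of the widest gaps. Of 18 past the filter, 10 were higher and 3 lower. Dab2, an endocytic adaptor, had 12.40 in reconstituted macrophages and 4.76 in splenic monocytes, a difference of 7.64 and the widest of any gene that was in neither an epithelial nor another cell type's set. Stab1, a scavenger receptor that binds phosphatidylserine, had 11.71 and 4.97. Mertk, the receptor tyrosine kinase for engulfment, had 10.96 and 5.77, and its bridging ligand Gas6 had 10.66 and 4.87. Axl, a sister kinase, was already bright in the monocytes, with 11.15 and 9.23. Mertk and Gas6 were both below the array median in the monocytes and both bright in the macrophages.

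The same list had members on the other side. Pros1, the other bridging ligand of these kinases, had 7.82 in reconstituted macrophages and 9.50 in splenic monocytes. Anxa1, an annexin that dampens neutrophil entry, had 9.63 and 11.28. Mfge8, a further bridging protein, had 9.40 and 7.61 but stood at 7.51 to 7.62 in the other CX3CR1hi arrays, which did not share the difference.

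Complement transcripts were 9 higher and 0 lower of 14 (median 2.11). The median was 0.86 over all 18 measured and 1.11 with both arrays at or above their medians. The 3 chains of C1q, which opens the classical pathway and coats dying cells, were all higher. C1qa had 11.96 in reconstituted macrophages and 5.78 in splenic monocytes, C1qb 12.71 and 8.36, and C1qc 12.51 and 6.76. C3ar1, the receptor for the C3a fragment, had 12.61 and 8.08. Serping1, the C1 inhibitor, had 8.38 and 4.41. Itgam, a complement receptor subunit, had 11.10 and 11.64 and was within 2-fold.

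Scavenger receptors and restraints of inflammation were 12 higher and 1 lower of 20. Il10, the cytokine that holds gut macrophages in check, had 9.92 in reconstituted macrophages and 4.87 in splenic monocytes. Mrc1, the mannose receptor, had 11.85 and 7.67, and Folr2, a folate receptor of tissue macrophages, had 9.33 and 4.94. Il10 was at 11.01 in resident macrophages and 5.04 in colitis monocytes, so neither splenic array reached the colonic ones. Both receptor chains for interleukin 10 were within 2-fold, Il10ra at 11.30 and 11.72 and Il10rb at 11.06 and 10.67. Scarb1, a lipoprotein receptor, was the lower member, at 9.29 and 10.61. Cd163, the haemoglobin scavenger receptor, had 5.99 and 5.03, while resident macrophages had 8.22 and colitis F4/80hi cells 9.14.

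Chemokines were mostly higher: 16 of 20 were at least 2-fold higher and 2 lower, with a median difference of 3.71. Over all 22 measured the median was 3.11, and with both arrays at or above their medians it was 2.05. Cxcl2, which draws neutrophils, had 12.33 in reconstituted macrophages and 5.50 in splenic monocytes. Pf4, a chemokine best known from platelets, had 11.59 and 5.15. Ccl8 had 10.50 and 4.55, and Ccl7 had 10.55 and 5.40; both draw monocytes and lymphocytes. Cxcl16, a membrane-bound chemokine that also binds oxidised lipid, had 12.28 and 7.74. Cxcl13, the B cell attractant, had 10.54 and 6.21. The lower members were Ccl6 (10.68 and 12.20) and Ccl9 (9.96 and 11.57), both bright in each array.

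The size of some chemokine differences depended on which splenic array was used. Ccl3 had 12.99 in reconstituted macrophages, against 11.51 in colitis monocytes and 8.12 in steady-state monocytes. Ccl2 had 10.57 in reconstituted macrophages, against 9.17 in colitis and 6.43 in steady-state monocytes. By contrast, Pf4 (5.88), Ccl8 (6.14) and Ccl12 (4.68) stayed low in colitis monocytes. The reconstituted array was above both splenic arrays for all 16 higher chemokines, but these were chosen for being higher in it. All 4 CX3CR1hi arrays were above both splenic arrays for 15 of the 16, against 98.0% of all higher genes. The choice of genes fixes part of both counts, so nothing is read from them.

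The promoter of Cxcl2 is shown because this gene had the widest gap among chemokines and 2 matches to an NF-kB motif (GGG, any 2 bases, then TTTCC), searched on both strands. The window runs from 250 bases before to 50 after the gene start in RefSeq, build GRCm38.p6, chr5:90903649-90903948, plus strand, with the matches in capitals.
Cxcl2: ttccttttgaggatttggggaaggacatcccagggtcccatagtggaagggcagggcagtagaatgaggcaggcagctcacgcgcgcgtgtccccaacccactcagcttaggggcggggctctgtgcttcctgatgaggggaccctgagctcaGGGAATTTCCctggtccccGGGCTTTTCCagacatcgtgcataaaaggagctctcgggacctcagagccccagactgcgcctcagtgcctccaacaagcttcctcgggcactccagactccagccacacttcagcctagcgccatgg
Of 14 chemokine genes past the filter that had a promoter in the table, 3 held this motif (Cxcl2, Cxcl1 and Ccl9), against 1.89% of 27025 genes. Of 9 inflammatory mediator genes, 1 did (Csf1). Ccl9 was lower and Csf1 within 2-fold, so the matches lay on genes of either direction, and a match is a description of letters, not of binding.

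Inflammatory mediators were 8 higher and 1 lower of 13. Ptgs2, the inducible cyclooxygenase that opens prostaglandin synthesis, had 12.24 in reconstituted macrophages and 5.03 in splenic monocytes. It was at 8.78 in colitis monocytes, which left 3.46 of the difference of 7.22. Il1a, an alarmin cytokine, had 11.64 and 4.59, and in colitis monocytes it was as low, at 4.93. Osm, a cytokine of the interleukin 6 family, had 10.53 and 5.99. Il1b was bright in both, with 12.62 and 9.78, and Tnf had 9.44 and 7.75. The lower member was Il27, with 6.35 and 8.04.

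Prostaglandin and leukotriene genes lay in both directions within each branch. Hpgds, which makes prostaglandin D2, had 11.24 in reconstituted macrophages and 5.07 in splenic monocytes. Ltc4s, the leukotriene C4 synthase, had 7.44 and 4.86, and Alox5, the lipoxygenase at the head of that branch, had 8.80 and 7.68. Alox5ap, the protein that feeds it arachidonate, was lower, with 9.44 and 12.29. The prostaglandin receptors Ptgir (4.39 and 8.54) and Ptger2 (4.60 and 5.90) were lower, and Ptger4 was within 2-fold (9.51 and 8.79). Of the 14 genes of this list, 7 were higher and 4 lower (background 17% and 11%).

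Of 13 matrix protease and inhibitor genes past the filter, 8 were higher and 1 lower, with a median difference of 4.06. The filter set much of that median: over all 17 measured it was 0.81, and with the resident array in place of the reconstituted one it was 1.96. Mmp13, a collagenase, had 11.92 in reconstituted macrophages and 4.80 in splenic monocytes. Adamdec1, a metalloprotease of gut macrophages, had 12.02 and 5.82. Mmp2 had 10.08 and 4.92, and its activator Mmp14 had 10.55 and 5.85. Plau, the urokinase plasminogen activator, had 10.47 and 6.40. The lower member was Mmp8, the neutrophil collagenase, with 4.36 and 10.59, a difference of -6.23. Mmp9, a gelatinase, had 11.88 in reconstituted macrophages and 5.72 in splenic monocytes, but 6.88 in resident and 7.04 in colitis F4/80hi cells, so the other colonic arrays lay far closer to the spleen. Mmp9 was also in the neutrophil list, of which 3 of 10 genes past the filter were higher and 5 lower (median -1.19). The median level of all 20 measured neutrophil genes was 4.87 in reconstituted macrophages and 5.55 in splenic monocytes. Their sum was 8040 in reconstituted macrophages, 1605 to 8040 over the CX3CR1hi arrays and 4100 to 4435 in the spleen, and it includes Mmp9 itself and Il1r2, the decoy receptor for interleukin 1 (11.52 and 6.19). S100a8, a calprotectin subunit, had 5.25 and 6.78.

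Growth factors were 9 higher and 0 lower of 12 (background 17% and 11%). Hbegf, a ligand of the epidermal growth factor receptor, had 9.52 in reconstituted macrophages and 5.31 in splenic monocytes. Vegfa, the vascular growth factor, had 9.56 and 6.01. Pdgfc had 8.46 and 4.98, and Igf1 had 9.17 and 6.39. Hgf was within 2-fold, with 7.81 and 8.36.

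Of 12 MHC class II genes past the filter, 5 were 2-fold higher, 7 were within 2-fold and 0 were lower, and the median difference was 0.93. H2-Eb1, a class II beta chain, had 13.06 in reconstituted macrophages and 10.82 in splenic monocytes. H2-Aa had 13.24 and 12.23, and Ciita, the master regulator of the class, had 10.12 and 8.95. Of 10 costimulation genes, 6 were higher: Cd83, which stabilises class II at the surface, had 12.14 and 7.24, and Cd86 had 11.28 and 9.25, while Cd40 had 9.08 and 9.18.

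Lysosomal genes were mostly alike, with 18 of 24 within 2-fold, 6 higher and 0 lower (median 0.11). Psap, the saposin precursor, had 13.07 in reconstituted macrophages and 13.12 in splenic monocytes, and Lamp1 had 12.35 and 12.29. Acp5, an acid phosphatase, had 11.77 and 8.62. Ctsl, a cathepsin, had 10.69 and 8.15. The letters CACGTG, the E-box searched here, were in the promoter window of 7 of 19 lysosomal genes (36.8%), against 8.09% of all 27025 genes and 12.1% of 8484 genes past the filter. Of those 7, Gla, Ctsl and Ctsd were higher and the other genes were within 2-fold.

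Among lipid genes, Abca1, the cholesterol exporter, had 10.96 in reconstituted macrophages and 7.16 in splenic monocytes, and Apoe had 12.89 and 11.29. Of 17 lipid genes 7 were higher and 1 lower (background 17% and 11%). Tfrc, the transferrin receptor, had 9.19 and 5.69. Slc40a1, the iron exporter ferroportin, had 9.29 and 6.91. Hmox1, which degrades haem, had 10.48 and 10.43. Hp, haptoglobin, was near the floor in the macrophages, with 4.48 and 10.99. Of 13 iron genes 3 were higher and 2 lower, close to the 17% and 11% of all members.

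Among potassium channel genes, 1 was bright in a single array. Kcnma1, the pore of the large-conductance calcium-activated channel, had 12.13 in reconstituted macrophages and 4.56 in splenic monocytes. It was between 4.19 and 4.63 in the other colonic arrays, the resident one included, and 4.40 in colitis monocytes. Kcnj10, an inward rectifier, had 9.52 and 5.16, and was bright in resident macrophages as well (9.71). Of 10 channel genes 6 were higher and 2 lower (background 17% and 11%). The lower ones were Kcnab2 (7.53 and 9.67) and Kcnj2 (5.45 and 7.29).

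Transcription factors of the lineage were 15 higher and 4 lower of 34, against 17% and 11% of all members, so the lower count was close to its background. Maf, a factor of tissue macrophages, had 10.55 in reconstituted macrophages and 8.58 in splenic monocytes. Egr2 had 9.39 and 6.20, Mitf had 9.72 and 8.17, and Nr1h3, the oxysterol receptor LXR alpha, had 8.70 and 6.97. Spi1, the gene of PU.1, had 11.65 and 12.04 and stayed within 2-fold, as did Cebpb (9.80 and 9.66) and Irf8 (11.10 and 10.79). The lower factors were Rara (8.81 and 10.55), Irf4 (7.13 and 8.35), Irf5 (10.11 and 11.32) and Cebpd (6.56 and 7.60). The PU.1 motif GAGGAAGT was in 1 of 13 macrophage identity promoters (Hpgds) and 3 of 23 monocyte identity promoters (F13a1, S100a4 and S100a8), against 3.69% of all genes.

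Immediate early genes, which cells induce rapidly after a stimulus, were listed together with the heat shock genes Hspa1a, Dnajb1 and Hsph1. Of 22 in this list, 18 were higher and 0 lower. Fosb had 12.14 in reconstituted macrophages and 6.23 in steady-state monocytes, but 9.39 in colitis monocytes. Egr1 had 11.85 and 6.70, with 8.70 in colitis monocytes, and Fos had 12.22 and 9.79, with 11.58. The list's median difference was 1.71 against steady-state monocytes and 0.92 against colitis monocytes. The splenic arrays thus differed from each other in these genes, and the gap to the colon was smaller against the colitis array. The CArG box was in 2 of 19 promoters of this list (Egr2 and Zfp36), against 1.81% of all genes.

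Cell cycle genes were 15 higher and 0 lower of 27 (background 17% and 11%), with a median difference of 1.08. Mki67, the proliferation antigen, had 9.96 in reconstituted macrophages and 8.08 in splenic monocytes, Top2a had 8.81 and 6.74, and Cdk1 had 8.25 and 6.06. Epithelial genes, whose crypt cells divide, were higher in the same array, and their part in the cycle genes was not tested. Glycolysis and hypoxia response genes, 1 list, were 5 higher and 0 lower of 16 (background 17% and 11%). Vegfa (above) was the furthest apart, and Hif1a was alike at 11.01 and 11.19. Of the 5 higher genes, 4 passed the filter in the colitis pair and 1 was 2-fold higher there. The list's median difference was 0.29 here and -0.11 in the colitis pair.

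**Figure D3:**
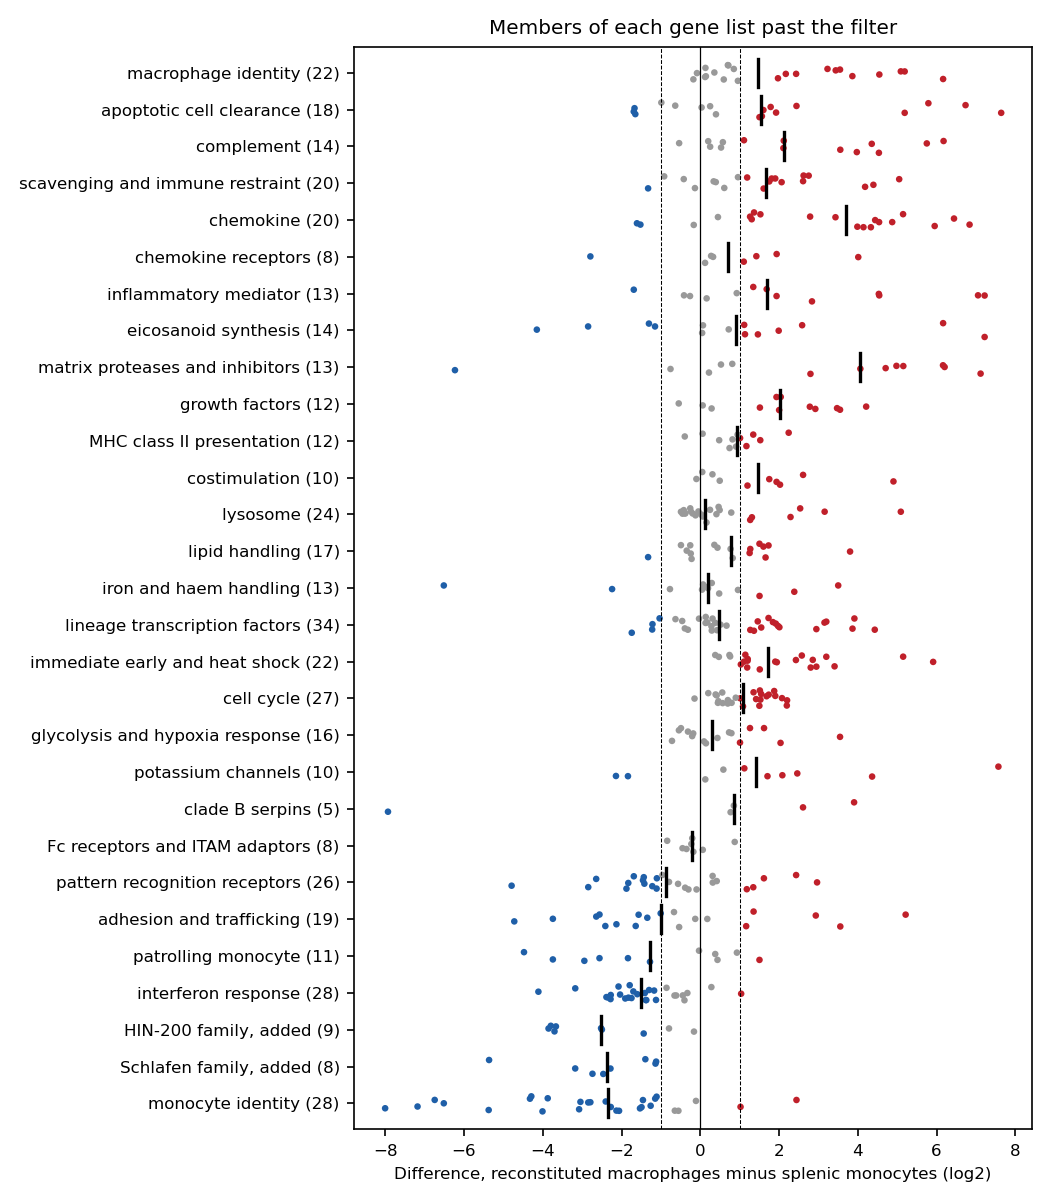
Difference of each member past the filter (points) in each gene list, reconstituted macrophages minus splenic monocytes on the log2 scale, with a bar at the list's median and the number of members in brackets. Red points are at least 2-fold higher, blue points at least 2-fold lower. The medians of chemokines and matrix proteases lie furthest right, and those of the monocyte identity, Schlafen and HIN-200 lists furthest left.

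Monocyte identity genes were lower in the macrophages. Of 28 past the filter, 23 were at least 2-fold lower (background 11%) and 2 were higher, with a median difference of -2.34. Ly6a2, of the Ly6 family, had 4.61 in reconstituted macrophages and 12.62 in splenic monocytes, a difference of -8.00. Chil3, a chitinase-like secreted protein, had 4.43 and 11.61. Ifitm6, of the interferon-induced transmembrane family, had 6.03 and 12.78. Vcan, the proteoglycan versican, had 5.08 and 10.46, and S100a4, a calcium-binding protein of motile cells, had 6.36 and 10.69. For these genes all 4 CX3CR1hi arrays lay below both splenic arrays, but that held for 98.9% of all lower genes and is not particular to these. Ly6a2, Chil3 and Vcan were below the array median in reconstituted macrophages.

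Part of the monocyte programme was lower but still bright. Ccr2, the receptor that brings monocytes out of the marrow, had 9.86 in reconstituted macrophages and 12.65 in splenic monocytes. Plac8 had 9.70 and 12.78, and Fn1, fibronectin, had 8.80 and 12.67. F13a1, the clotting transglutaminase, had 9.64 and 12.04. Lyz2, the lysozyme of myeloid cells, was alike, at 13.19 and 13.30. The higher members were Thbs1, thrombospondin (12.09 and 9.65), and Lyz1 (11.50 and 10.48), and Lyz1 was at 9.62 and 9.86 in resident and colitis F4/80hi cells, under its level in the spleen. Lyz1 and Lyz2 are near-identical copies whose probes may share signal.

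Serpinb10, a clade B protease inhibitor, had 4.75 in reconstituted macrophages and 12.68 in splenic monocytes, against 10.65 in colitis Ly6Chi cells of the colon. Of 5 clade B serpins past the filter in that list (7 measured), Serpinb10 was the lower one, 2 were higher and 2 within 2-fold. The higher ones were Serpinb6a (10.19 and 6.28) and Serpinb1a (10.15 and 7.55). Serpinb8 (9.84 and 8.99) and Serpinb9 (6.44 and 5.68) were within 2-fold. Further genes among the lowest were Arhgef37 (4.48 and 10.76), Klrb1f, a lectin-like receptor (5.08 and 10.06), Plcb1, a phospholipase C (4.96 and 9.74), Trem3, an activating receptor (5.91 and 10.51), and Nfe2, a transcription factor of blood cells (4.54 and 8.94).

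Clotting factors split in a set that was assembled after the values were seen. F10 had 6.07 in reconstituted macrophages and 10.36 in splenic monocytes, F5 had 4.38 and 8.69, and Thbd, thrombomodulin, had 6.22 and 9.41. Plau (above), F3, tissue factor (7.30 and 5.19), and Procr, the protein C receptor (6.67 and 5.32), were higher. Of 13 such genes 5 were higher and 5 lower (background 17% and 11%).

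Interferon response genes were lower as a list. Of 28 past the filter, 20 were at least 2-fold lower (background 11%) and 1 was higher, with a median difference of -1.50. Oas3, an oligoadenylate synthetase that senses double-stranded RNA, had 5.95 in reconstituted macrophages and 10.07 in splenic monocytes. Cmpk2, a mitochondrial nucleotide kinase induced by interferon, had 6.09 and 9.27. Irf7, the factor that amplifies the response, had 8.64 and 11.03. Usp18, its negative regulator, had 8.05 and 10.33, and Ifit1, which binds viral RNA, had 7.19 and 9.23. The higher member was Iigp1, an immunity-related GTPase, with 6.71 and 5.67. Gbp3 (9.82 and 10.22) and Bst2 (8.71 and 9.04) stayed within 2-fold.

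The promoters of Oas3 and Ifit1 are shown because they carry the interferon-stimulated response element, searched as GAAA, any 2 bases and GAAA on both strands, in the gene furthest apart and in a gene with 2 copies. Both are from RefSeq, build GRCm38.p6, over the same window as above, read 5′ to 3′ along the gene with matches in capitals. Oas3 lies at chr5:120777610-120777909 on the minus strand and Ifit1 at chr19:34640639-34640938 on the plus strand.
Oas3: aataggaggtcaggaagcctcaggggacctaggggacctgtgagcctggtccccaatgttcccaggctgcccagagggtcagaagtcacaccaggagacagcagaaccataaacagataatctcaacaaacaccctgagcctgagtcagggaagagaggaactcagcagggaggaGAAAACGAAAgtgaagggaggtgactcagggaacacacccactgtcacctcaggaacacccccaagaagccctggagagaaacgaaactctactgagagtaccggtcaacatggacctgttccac
Ifit1: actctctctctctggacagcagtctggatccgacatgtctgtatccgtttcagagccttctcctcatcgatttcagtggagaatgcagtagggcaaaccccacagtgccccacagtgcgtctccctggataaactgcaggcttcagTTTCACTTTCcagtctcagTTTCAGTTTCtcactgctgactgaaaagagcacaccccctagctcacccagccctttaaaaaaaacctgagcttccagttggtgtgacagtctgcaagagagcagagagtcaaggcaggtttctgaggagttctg
The Oas3 match began 75 bases before the gene start, and the first Ifit1 match, on the opposite strand, began 104 bases before it. The motif was in 13 of 22 interferon list genes that had a promoter (59.1%), against 3.99% of 27025 genes and 3.94% of 8484 genes past the filter. It was in 10 of the 15 such genes that were 2-fold lower and in 3 of the 7 within 2-fold, which were Bst2, Gbp3 and Ifitm2. The list was made of genes known to respond to interferon, so this share describes the list and not the difference between the cells.

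Related families set together after the values were seen followed the same side. Of 9 HIN-200 genes past the filter, which encode DNA sensors, 7 were lower and 0 higher: Ifi205 had 8.63 in reconstituted macrophages and 12.43 in splenic monocytes, and Ifi213 had 6.98 and 10.84. All 8 Schlafen genes, growth regulators of myeloid and lymphoid cells, were lower, led by Slfn1 with 6.61 and 11.98. Ifi207 was alike, with 12.58 and 12.74, so the HIN-200 family was not low throughout.

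Receptors for microbes were on balance lower, with 12 of 26 lower, 5 higher and a median of -0.88. Against 11% lower and 17% higher over all members, the higher count was close to its background. Clec4e, the receptor Mincle for mycobacterial glycolipid, had 7.70 in reconstituted macrophages and 10.54 in splenic monocytes. Clec12a had 8.95 and 11.60, Nod1 had 9.05 and 10.88, and Tlr7, a sensor of single-stranded RNA, had 10.91 and 12.37. Cd14, the coreceptor for endotoxin, was higher by a difference of 2.43, as was Clec4n, the receptor dectin 2, with 11.53 and 8.56. Tlr4, the endotoxin receptor itself, had 9.12 and 8.80, and Tlr2 had 9.02 and 9.32. Cd209a, a lectin, had 5.45 in reconstituted macrophages and 10.24 in splenic monocytes, but 7.86 in resident macrophages and 12.38 in colitis Ly6Clo cells.

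Adhesion and trafficking genes were 10 lower and 5 higher of 19 (background 11% lower and 17% higher). Itgb7, the beta 7 integrin chain of gut homing, had 4.89 in reconstituted macrophages and 9.61 in splenic monocytes. Spn, the sialoglycoprotein CD43, had 5.03 and 8.78. Itgal, the alpha chain of LFA-1, had 9.08 and 11.64, its partner Itgb2 had 10.67 and 12.24, and Itga4 had 10.75 and 12.89. Among the higher genes Itga6, a laminin receptor chain, had 9.85 and 4.64, and Itgax, which encodes CD11c, had 11.69 and 8.13. Itga6 and Cd24a are also epithelial genes, and the part of epithelium in them was not tested. Among chemokine receptors, Ccrl2 (12.19 and 8.18) and Ccr1 (10.39 and 8.45) were higher while Ccr2 was the lower one of 8.

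Genes of patrolling monocytes, the Ly6Clo subset, were 6 lower and 1 higher of 11 (background 11% lower and 17% higher). Ace, the angiotensin converting enzyme, had 7.28 in reconstituted macrophages and 11.76 in splenic monocytes. Adgre4 had 9.02 and 11.97, and Treml4 had 9.51 and 11.34. The splenic gate was set on high Ly6C, and these genes were bright in that sort. Treml4 is also in the list of splenic red pulp macrophage genes. Of 7 in that list past the filter, Treml4 was the 1 lower gene and 2 were higher. Conventional dendritic cell genes were 3 lower and 3 higher of 11. The part of other cells in the splenic sort was not tested. Ly6c1 and Ly6c2 shared probe sets and are not analysed here.

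Fc receptors and their signalling adaptors were alike. None of 8 was 2-fold apart, and the median difference was -0.22. Fcer1g, the shared gamma chain, had 12.61 in reconstituted macrophages and 12.96 in splenic monocytes, Tyrobp, the adaptor DAP12, had 12.18 and 12.63, and Fcgr2b, the inhibitory receptor, had 12.11 and 12.05.

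The differences were read again in a pair of arrays that shares none with the first: colitis CX3CR1hi F4/80hi cells and colitis splenic monocytes. There 1649 of 10450 genes (15.8%) were 2-fold higher and 860 (8.23%) lower. Of the 1791 genes higher in reconstituted macrophages, 1679 passed the filter in the colitis pair and 1380 of those (82.2%) were also 2-fold higher there, against 15.2% of the 10256 genes past the filter in both pairs. Of the 1166 lower genes, 1152 passed and 692 (60.1%) were also lower, against 8.28%. None was 2-fold apart in the opposite direction. Across the 10256 genes the correlation of both differences was 0.936, given as a description, since genes are not independent replicates and both pairs set colon against spleen. This pair differs from the first in colitis, in labelled sex and in the gate.

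Lists repeated to different degrees. Of the 23 lower monocyte identity genes 21 (91.3%) were 2-fold lower in the colitis pair, against 60.1% of all lower genes. All 11 higher macrophage identity genes were 2-fold higher there, against 82.2% of all higher genes. Of the 20 lower interferon genes 13 (65%) were 2-fold lower there, near the 60.1%. Of the 18 higher immediate early and heat shock genes 10 (55.6%) were 2-fold higher there, under the 82.2%. For the interferon list the median difference was -1.50 in the first pair and -0.96 in the colitis pair. Iigp1 was further apart in colitis, at 9.60 in F4/80hi cells and 5.48 in splenic monocytes. With genes held only by other cell types' lists left out, all 25 of the 25 lowest differences were 2-fold lower in the colitis pair. Of the 25 highest, 11 of them the epithelial genes noted above, 24 were 2-fold higher there, Kcnma1 being the exception.

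**Figure D4:**
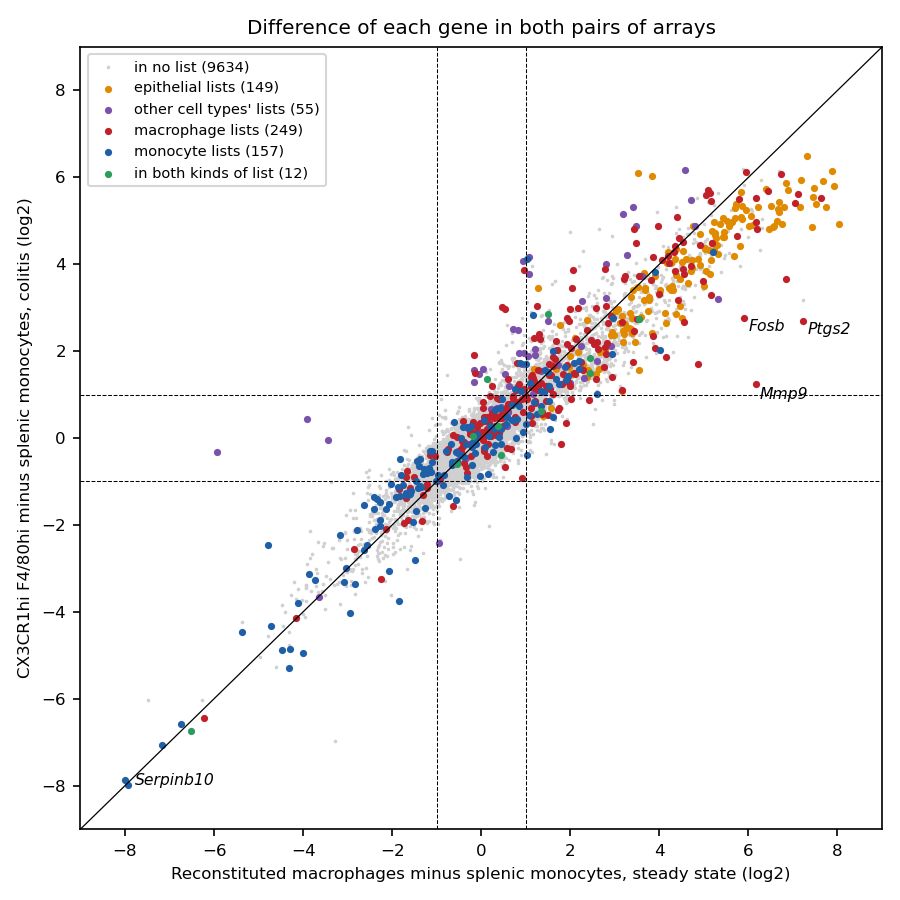
Difference of each of the 10256 genes past the filter in both pairs: reconstituted macrophages minus steady-state splenic monocytes (horizontal axis) and colitis CX3CR1hi F4/80hi cells minus colitis splenic monocytes (vertical axis), log2. The solid line marks equal differences and the dashed lines 2-fold. Points follow the line, epithelial genes lie under it on the right, and the purple points at the left centre are Y-linked genes.

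Read against every array, including the pair that chose the genes, 98.0% of the higher genes had all 4 CX3CR1hi arrays above both splenic arrays and 98.9% of the lower genes had all 4 below, against 30.9% above and 43.6% below among all members. The choice of genes fixes part of this share, so nothing is read from it. The resident array in place of the reconstituted one gave 1961 of 10652 genes (18.4%) higher and 1067 (10%) lower. Between reconstituted and resident macrophages themselves, 70 genes (0.675%) were higher and 113 (1.09%) lower, together 1.76% of those past the filter. The colitis monocytes differed from the steady-state monocytes in 65 genes higher (0.686%) and 2 lower (0.0211%), together 0.708%.

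Colonic Ly6Chi cells of colitis, the closest to monocytes among the colonic arrays by gate, lay between. Set against the colitis splenic monocytes, they had 987 genes (9.79%) 2-fold higher and 398 (3.95%) lower. The 259 genes that were 4-fold lower in reconstituted macrophages had a median level of 6.59 there, 8.73 in the colitis Ly6Chi array and 9.56 in splenic monocytes. The 99 macrophage and monocyte list genes that were 4-fold higher had medians of 10.54, 8.74 and 6.20. These genes were chosen for their extremes, so a middle value is in part a product of the choice. Single genes departed from it: Vcan (11.28) and F10 (10.92) were higher in the colitis Ly6Chi array than in the steady-state spleen, and Ptgs2 (12.69) was higher there than in the reconstituted macrophages.

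**Figure D5:**
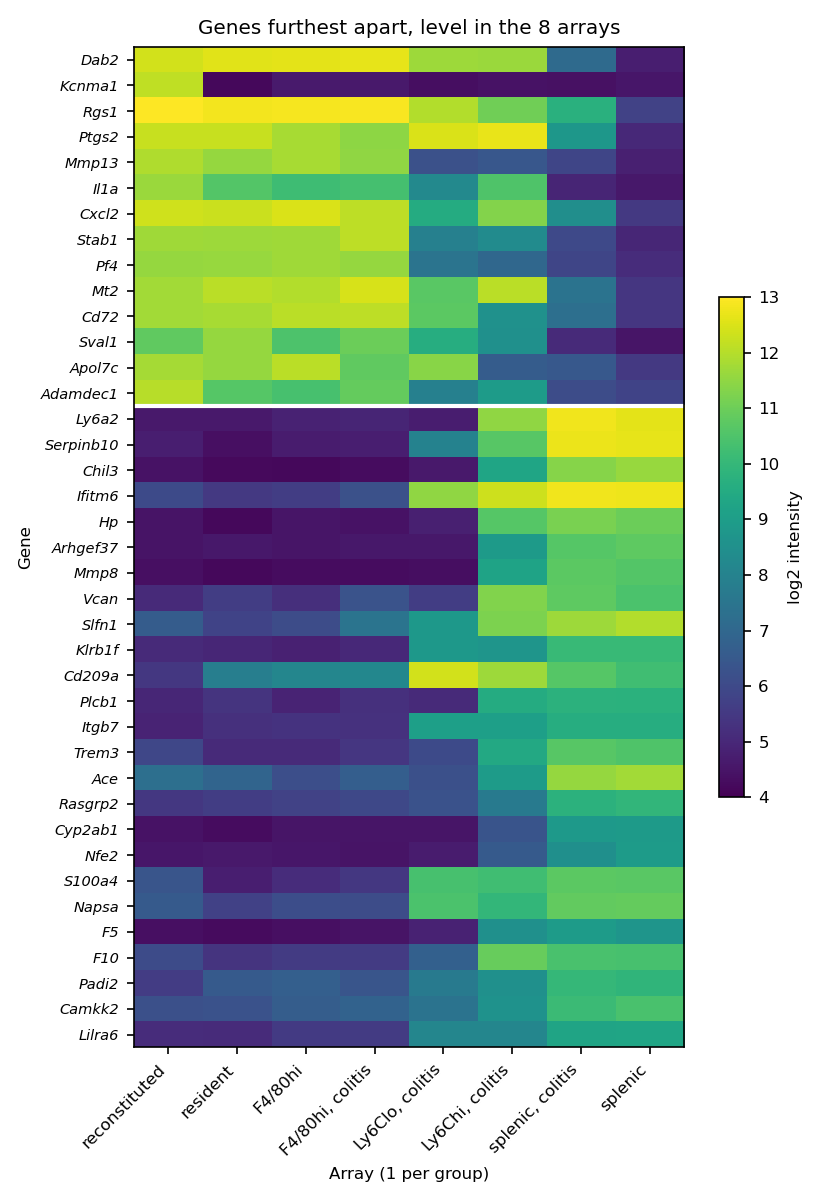
Log2 intensity in the 8 arrays of the genes furthest apart, 14 higher (above the white line) and 25 lower in reconstituted macrophages. Genes held only by other cell types' lists and the added epithelial genes are left out. The 4 CX3CR1hi columns on the left look alike except for Kcnma1 and Cd209a, the colitis Ly6Chi column keeps much of the lower block, and the splenic columns close the plot on the right.

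A few genes were high in the reconstituted array alone among the CX3CR1hi arrays. Of those at least 4-fold higher than in splenic monocytes, 6 were less than 2-fold above the monocytes, and more than 2-fold below the reconstituted cells, in every other CX3CR1hi array: Kcnma1, Il22ra2, Defa24, Chst2, Cst7 and Clec1b. Il22ra2, the soluble decoy receptor for interleukin 22, had 9.16 in reconstituted macrophages and 4.63 in splenic monocytes, 5.32 in resident macrophages and 8.34 in colitis Ly6Clo cells. Defa24, a defensin of Paneth cells, had 6.96 and 4.28, with 4.39 in resident macrophages. Clec1b, the podoplanin receptor CLEC-2, had 7.53 and 5.42, with 5.14. With 1 array, a value of the cells and a value of this sample cannot be told apart.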

How the data were processed

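RNA of sorted cells was hybridised to Affymetrix Mouse Gene 1.0 ST arrays, 1 per group and 8 in all. The deposited log2 values were made by the authors with RMA and Partek, per the submitters' processing notes, with versions not given in the sources used here. RMA normalizes arrays to each other, which removes any overall difference in RNA, and values of different genes are not comparable in level. Of 35399 probe sets, 21789 had 1 gene symbol in the platform annotation, 1621 had several and 11989 were not listed there, and only the first kind was used. The brightest probe set stood for a gene that had several (999 of 19938 genes). A gene was kept if its brighter value reached the median of the array it came from (10555 genes), and 2-fold is a log2 difference of 1. With 1 array per group no test was possible, so counts and medians of 43 gene lists stand beside those of all genes. The genes and lists were chosen with earlier results of these data known, and 4 lists were added after their values were seen. Named genes are, by rule, list members and the genes furthest apart. The call rule was tested on simulated data with known shifts and random noise alone. These data held no difference of tissue, batch or other cells, so they do not test the calls made here. Python 3.11.15, pandas 2.3.3 and numpy 2.4.6 were used. Intensity has no count behind it, so the number of arrays limits the precision.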

Additional observations from a re-analysis of the deposited data

How the results depend on the processing

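The count of higher genes was 1791, and 993 with the brighter array at or above its 75th percentile, 818 with both arrays at or above their medians, and 899 at 4-fold. The count of lower genes was 1166, and 259 at 4-fold. Under the other settings tried (no brightness filter, mean of probe sets, 2 rescalings, other arrays in place of either, other cell types' genes left out) both counts stayed within 1.5 times. The filter on both arrays drops genes that are dim in the monocytes, and every stricter filter leaves fewer genes. Among 43 list medians, neutrophil genes turned to 0.71 at the 75th percentile, and with both arrays at or above their medians acinar genes turned to -0.17 and the sex check genes to 2.24. The cause was not tested beyond the fewer genes that those filters leave. Some named genes turned with another macrophage array. With the resident array, Kcnma1 came to -0.37, Clec1b to -0.29 and Lyz1 to -0.86. With the steady-state F4/80hi array, Clec1b came to -0.23, Lyz1 to -0.63, Mfge8 to -0.10, Kdm5d to 0.10, Uty to 0.50 and Xist to -5.41, and that array was labelled male. In the colitis pair, Il22ra2 came to -0.041, Lyz1 to -0.39, Mfge8 to -0.13, Uty to 0.43 and Xist to -0.28. The cause was not tested. A list median counts as moved if it shifted by at least 0.396, the SD of the yardstick pair. That SD is across single genes and does not measure how list medians vary. List medians moved without turning in 17 of 43 with no filter, 17 at the 75th percentile, 19 of 42 with both arrays at their medians, 7 with the colitis splenic array, 13 with the resident array, 16 with the steady-state F4/80hi array and 18 in the colitis pair. Named genes moved in 50 of 201 with the colitis splenic array, 62 with the resident array, 72 with the steady-state F4/80hi array and 117 in the colitis pair. Both rescalings moved none of either. A second quantile normalization put the median difference of all genes at -0.02, against -0.12 as reported. No paired analysis was possible because each group holds 1 array. The alternatives that used the colitis pair or left out the added epithelial genes were chosen after seeing the data.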
